A study of Mus musculus with 19 samples.

Results

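Skeletal muscle of old mice fed a high-fat diet was compared with that of young mice fed a low-fat diet, the 2 extremes of a design that crosses age with diet. The libraries were chosen by label alone: 5 aged obese and 4 young lean libraries, 9 of the 19 in all, and every gene with a mean normalized value of at least 10 over the 19 libraries, which kept 13367 of 14707 genes. Per the labels, all animals were male C657Bl/6J mice and the tissue was gastrocnemius, a calf muscle dominated by fast fibres. Aged obese mice were 20 to 21 months old and ate a diet with 60% of calories from fat, whereas young lean mice were 6 months old and ate one with 12%. The remaining groups hold 1 factor each and were used as reference levels: 5 young obese libraries (6 months, 60% fat) and 5 aged lean libraries (20 to 21 months, 12% fat). No transgene, mutation or drug is named for any group. Because aged obese and young lean mice differ in age and in diet, the contribution of each to a difference between these groups cannot be told apart from this comparison alone. The labels leave unsaid whether every library is a separate mouse, and p-values therefore measure only how far these libraries spread.

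Mixed limb muscle consists of fast fibres, which express the myosin heavy chains Myh4, Myh1 and Myh2 and rely largely on glycogen and glycolysis, and slow fibres, which express Myh7 and rely on oxidative metabolism. In ageing rodent muscle, motor nerve terminals withdraw from some fibres, and muscle that has lost its nerve raises acetylcholine receptor and other junction genes. A diet rich in fat supplies fatty acids that activate PPAR nuclear receptors, whose targets in muscle include genes of fatty acid transport, storage and oxidation.

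The values are normalized signal per gene as the authors deposited it, in 19 columns with totals of 15394498 to 17689025. The value that 1 read contributes was 0.903 to 1.09, which places the depth near 15063612 to 17849916 reads per library. The muscle genes fixed as markers were present at high level in every library, with Acta1 at 521210 or more and Ckm at 297083 or more. In principal component analysis, PC1 took 21.2% and PC2 15.8% of the variance. Young lean 1 and young obese 2 each correlated less with their own group (mean r = 0.972 and 0.973) than with the other groups (0.973 and 0.976). In young lean 1 that gap was slight. Young obese 3 had the lowest correlations, 0.969 with its own group and 0.960 with the others, and lay farthest out on PC1 (-52.2). Results that rest on young lean 1 are given with and without it. In bulk RNA, fewer cells of a type cannot be told apart from less RNA per cell.

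Of the 13367 genes, 746 (5.58%) differed between aged obese and young lean muscle in limma's moderated test on log2(value + 1) at an adjusted p under 0.05, 434 of them higher (3.25%) and 312 lower (2.33%). Fold changes on this scale understate changes of genes with low values. The change exceeded 2-fold in 165 genes, of which 128 rose and 37 fell, so large changes were mostly rises. The median change over all genes was -0.005 on the log2 scale, against 0.69 among the genes that rose and -0.43 among those that fell. In the same model, aged obese muscle differed from aged lean muscle in 39 genes (0.292%) and from young obese muscle in 1206 genes (9.02%). The single factors, in comparisons that share these young lean libraries, gave 545 genes for aged lean (4.08%, with 2.09% higher and 1.99% lower) and 1475 for young obese muscle (11%, with 5.7% higher and 5.33% lower). Leaving out young lean 1 together with young obese 2 gave 1219 genes, 634 of which were among the 746. Leaving out single libraries gave 436 to 1078 genes, with the lowest counts without aged obese 2 (436), aged obese 3 (440), young lean 3 (451) and young lean 2 (491), and the 2 groups fitted alone gave 389.

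**Figure D1:**
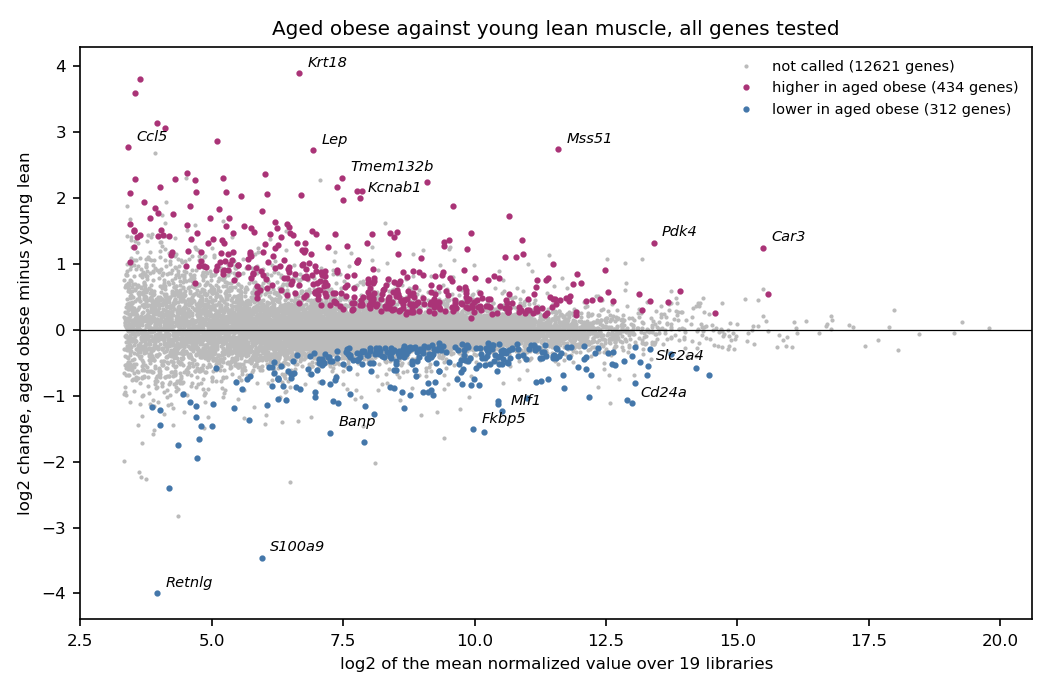
Each point is 1 of the 13367 genes, with the log2 of its mean normalized value over 19 libraries on the x axis and its log2 change, aged obese minus young lean, on the y axis. The 434 genes that rose are in purple and the 312 that fell in blue, and the purple points reach larger changes, up to 3.90 for Krt18 among genes with a mean of at least 50.

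Among the genes with the largest rises, several were high in both aged groups. Krt18, a keratin of simple epithelia, read 13.6, 8.35, 8.57 and 3.89 in young lean libraries 1 to 4 and 207, 265, 419.9, 70.6 and 24.4 in aged obese libraries 1 to 5. The groups did not overlap, and the change was 3.90 ± 0.71 (log2 ± SE, adjusted p = 0.00303). Aged lean muscle held 172 ± 148 (SD, n = 5) and young obese muscle 7.26 ± 4.63, so the aged obese level was beyond the young obese one (adjusted p = 0.00113) but not shown to differ from the aged lean one (log2 0.07 ± 0.67, adjusted p = 0.984).

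Kcnab1, a beta subunit of voltage-gated potassium channels, read 66.2, 93.9, 80.9 and 88.4 in young lean muscle and 391, 449, 312, 365 and 196 in aged obese muscle, a change of 2.00 ± 0.30 (adjusted p = 0.000555). The lowest aged obese library, number 5, was still more than the highest young lean one. Kcnab1 averaged 359 in aged lean and 86.8 in young obese muscle, so both aged groups stood well above both young ones. Cpne2, which encodes a calcium-dependent phospholipid-binding copine, rose by 1.88 ± 0.32 (adjusted p = 0.00183), from 288 ± 33.4 to 1187 ± 654, and averaged 1147 in aged lean muscle. Pla2g2d, a secreted phospholipase, rose by 1.80 ± 0.22 (adjusted p = 0.000132), from 26 ± 6.8 to 92.6 ± 20, with 83.1 in aged lean muscle. Tmem132b had the lowest p among the named genes, with 29.2, 41.7, 64.7 and 55.4 in young lean and 192, 254, 218, 259 and 239 in aged obese muscle (log2 2.31 ± 0.17, adjusted p = 3.6e-07). Its mean was higher still in aged lean muscle, at 326 ± 38.3.

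Rab15, a small GTPase of endosomal recycling, was high in both obese groups: it averaged 57.6 ± 23.6 in young lean, 98.8 ± 25.5 in aged lean, 229.6 ± 71.9 in young obese and 259 ± 108 in aged obese muscle. Its rise over young lean muscle was 2.16 ± 0.30 (adjusted p = 0.000327), and it was among the few genes also higher than in aged lean muscle (adjusted p = 0.0498).

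Mss51 and Npr3 had their highest means in aged obese muscle, but neither departed from the sum of the single effects of age and diet (adjusted p = 0.574 and 0.403). Mss51 encodes a muscle mitochondrial protein whose mRNA falls when myostatin signalling is blocked, as known from mice. Its young lean libraries read 224, 1421, 1649 and 1524, the first of which lay far below the others, and its aged obese libraries read 4266, 8308, 5646, 7618 and 6838. The rise was 2.75 ± 0.45 (adjusted p = 0.00138) and stayed at 2.06 without young lean 1, and aged obese libraries did not overlap those of young lean muscle. Mss51 averaged 2513 in aged lean and 1735 in young obese muscle, and the aged obese level passed the test against young obese (adjusted p = 0.00774) but not against aged lean muscle (adjusted p = 0.194). Npr3, the clearance receptor of natriuretic peptides, read 111, 67.8, 89.5 and 103 in young lean and 368, 533, 274, 255 and 705 in aged obese muscle (log2 2.10 ± 0.32, adjusted p = 0.000606). It averaged 164 in aged lean and 159 in young obese muscle, and passed the test against young obese (adjusted p = 0.00679) but not against aged lean muscle (adjusted p = 0.06).

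Syt9, a vesicle calcium sensor, and Hpgd, the dehydrogenase that inactivates prostaglandins, also rose without overlap, by 2.06 ± 0.31 (adjusted p = 0.000553) and 2.05 ± 0.43 (adjusted p = 0.00868). The other 4 of the 14 largest rises overlapped young lean libraries, and their calls depended on single libraries. Lep, the adipocyte hormone leptin, read 84.7, 14.6, 11.4 and 35 against 74.1, 325, 90.3, 171 and 543 (log2 2.72 ± 0.65, adjusted p = 0.0186), and its call was lost without young lean 2 or 3 or aged obese 2 (adjusted p up to 0.0701). Tmem45b rose by 2.36 ± 0.56 (adjusted p = 0.0175), a call lost without young lean 2 or 3 (adjusted p up to 0.0659). Igfn1, a muscle protein of the Z-disc, rose by 2.25 ± 0.54 (adjusted p = 0.0207), a call lost without young lean 2 or aged obese 2 or 3 (adjusted p up to 0.0726). Nnat, a membrane proteolipid of the endoplasmic reticulum, rose by 2.12 ± 0.61 (adjusted p = 0.0469), with young lean 1 inside the aged obese range, a call lost in 12 of the 19 fits that left out 1 library (adjusted p up to 0.128, without young lean 4). Over all genes tested, aged obese libraries lay wholly above young lean ones for 617 (4.62%) and wholly below for 577 (4.32%).

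The largest fall among genes with a mean of at least 50 was that of S100a9, a calcium-binding protein of neutrophils. It read 51.6, 126.2, 83.8 and 381 in young lean and 8.23, 20.8, 12.6, 13.9 and 3.05 in aged obese muscle, with no overlap (log2 -3.46 ± 0.88, adjusted p = 0.0272), and the call was lost without young lean 2 or 4 or aged obese 1 or 5 (adjusted p up to 0.083). Among the 8 neutrophil markers tested, 2 fell (2.33% of all genes did), S100a9 and Retnlg, none rose, and the median change was -2.23. Against the same young lean libraries the median was -2.37 in aged lean and -1.43 in young obese muscle, with 0 called. The low median was thus shared by all groups other than young lean. Without young lean 2, young lean 4, aged obese 1 or aged obese 5, 1 of the 8 fell, and without young obese 2, 3 did. Retnlg read 8.76, 41.7, 27.6 and 102 in young lean and 0, 0.989, 0.903, 1.07 and 4.07 in aged obese muscle (log2 -3.99 ± 0.91, adjusted p = 0.014), where it was listed at 0 in library 1. Retnlg reached the mean of 10 that the filter asked only through its young lean values, so the filter favoured a fall. The summed value of the list was 293 to 1321 in young lean and 112 to 163 in aged obese libraries. None of the 15 macrophage markers changed, with a median of 0.02.

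For 9 of the 14 largest falls, S100a9 included, the aged lean and young obese means both lay between those of young lean and aged obese muscle. The 14 were chosen for the gap between young lean and aged obese muscle, and that choice favours means in between. S100a9 read 9.97, 13.7, 11.2, 14.7 and 30.8 in aged lean muscle, close to its aged obese values. Banp, a nuclear DNA-binding protein, read 339, 201, 242 and 225 in young lean and 78.2, 98.9, 69.5, 95.2 and 77.4 in aged obese muscle (log2 -1.56 ± 0.20, adjusted p = 0.000176), with means of 121 in aged lean and 170.5 in young obese muscle. Cd24a, a surface glycoprotein, fell from 11219 ± 1770.3 to 5209.9 ± 1021 (log2 -1.12 ± 0.14, adjusted p = 0.000175) and was also lower than in aged lean (adjusted p = 0.011) and in young obese muscle (adjusted p = 0.0131). Fkbp5, a co-chaperone of the glucocorticoid receptor that glucocorticoids induce, read 904, 917, 1580.1 and 2721 in young lean and 566, 453, 591, 523 and 339 in aged obese muscle (log2 -1.50 ± 0.30, adjusted p = 0.00611). The young lean libraries of Fkbp5 spanned a wide range and the aged obese ones a narrow one, with no overlap.

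Mlf1 (log2 -1.23, adjusted p = 0.000553), Lingo3 (-1.18, adjusted p = 0.000132), the villin family protein Avil (-1.16, adjusted p = 0.000324), Osgin1 (-1.28, adjusted p = 0.00305) and the cationic amino acid transporter Slc7a2 (-1.12, adjusted p = 0.00626) fell too. The mitochondrial ATP-magnesium carrier Slc25a25 read 1817, 1396, 1441 and 1110.4 in young lean and 537, 327, 294, 739 and 713 in aged obese muscle (log2 -1.54 ± 0.43, adjusted p = 0.0425), and its call was lost in 7 of the 19 fits that left out 1 library (adjusted p up to 0.107, without aged obese 3). Tph1, the enzyme that starts serotonin synthesis outside the brain, fell by 1.15 ± 0.29 (adjusted p = 0.027), a call lost without young lean 4 or aged obese 2, 3 or 5 (adjusted p up to 0.0806). Arhgap26, a GTPase-activating protein, fell by 1.12 ± 0.25 (adjusted p = 0.0147), a call lost without young lean 3 or 4 (adjusted p up to 0.0557). In 13 of the 14 largest falls the groups did not overlap, and of the 28 largest changes 20 stayed called in every fit without 1 library. The 28 were chosen as called genes with the largest changes in these same libraries. That choice favours both counts, so they lend the changes no further support.

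**Figure D2:**
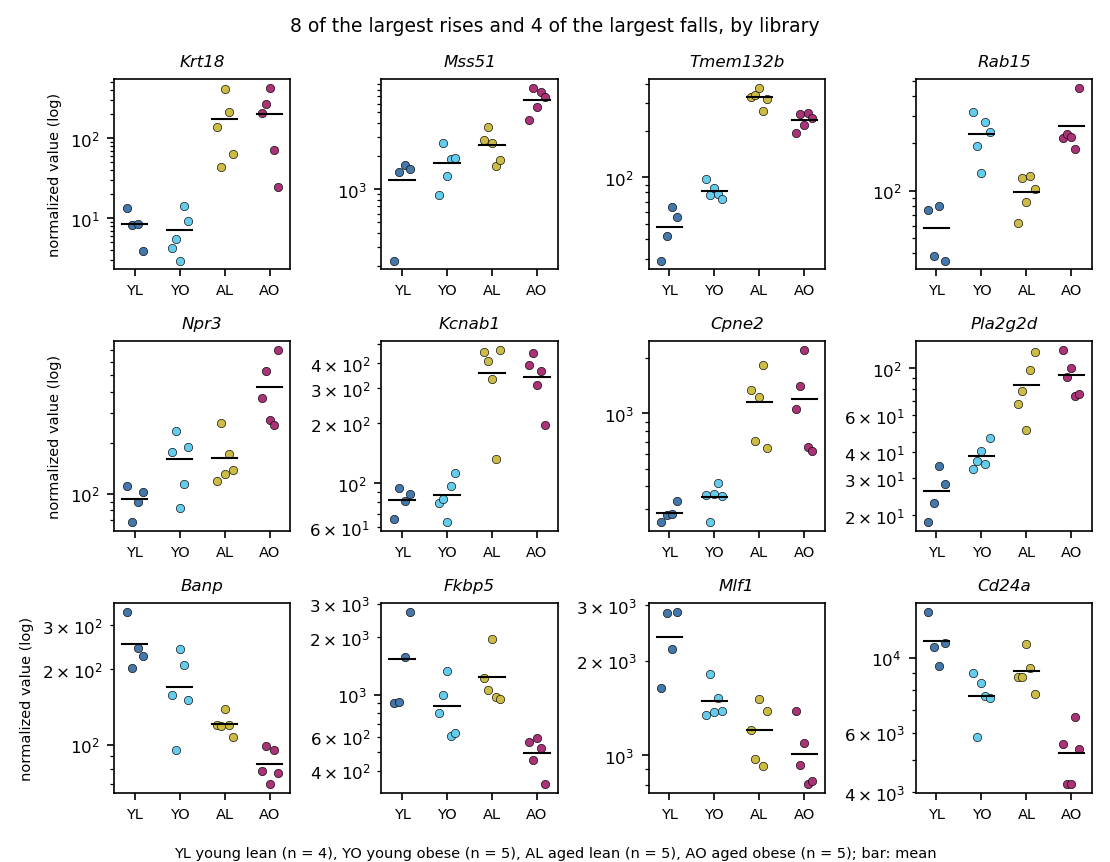
Normalized values (log axis) of 8 of the 14 largest rises and 4 of the 14 largest falls in every library, with points for libraries and bars for group means. Krt18, Tmem132b, Kcnab1, Cpne2 and Pla2g2d are high in both aged groups, Rab15 is high in both obese groups, Mss51 and Npr3 have their highest means in aged obese muscle, and Banp, Fkbp5, Mlf1 and Cd24a have their lowest means there.

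Several slow fibre genes rose. Of the 16 tested, 6 rose (3.25% of all genes did) and none fell. All 16 had a positive change, with a median of 0.86 against -0.005 over all genes. None of the 17 fast fibre genes changed (median 0.04). Car3, the carbonic anhydrase of slow fibres and adipocytes, read 30096, 49086, 24679.6 and 28712 in young lean and 88027, 64881, 76814, 65915 and 88281 in aged obese muscle (log2 1.25 ± 0.18, adjusted p = 0.000478). All aged obese libraries lay above all young lean ones, and Car3 was also higher than in aged lean (log2 1.07 ± 0.17, adjusted p = 0.00987) and young obese muscle (log2 1.17 ± 0.17, adjusted p = 0.000574). Against aged lean muscle 6 slow fibre genes rose (0.135% of all genes did), and against young obese muscle 5 did (4.16%).

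Tnni1, the slow troponin I that regulates contraction, read 989.8, 476, 773 and 446 in young lean and 1598, 1850.5, 1532, 1042 and 3504 in aged obese muscle (log2 1.46 ± 0.34, adjusted p = 0.0175). The groups did not overlap, aged obese 5 was the highest, and the call was lost without young lean 2 or 4 (adjusted p up to 0.0578). Myl6b, a slow myosin light chain, rose by 0.82 ± 0.18 (adjusted p = 0.0104) and its call was kept in all 19 fits that left out 1 library. Slow tropomyosin Tpm3 rose by 0.76 ± 0.22 (adjusted p = 0.0445), a call lost in 12 of the 19 fits that left out 1 library (adjusted p up to 0.118, without young lean 2). Slow troponin T, Tnnt1, rose by 1.11 ± 0.32 (adjusted p = 0.0456), a call lost in 11 of the 19 fits that left out 1 library (adjusted p up to 0.125, without young lean 2). Casq2, the calsequestrin that stores calcium in slow fibres, rose by 0.88 ± 0.25 (adjusted p = 0.0491), a call lost in 15 of the 19 fits that left out 1 library (adjusted p up to 0.157, without young lean 2). Without young lean 2 or young lean 4, 2 of the 16 slow fibre genes rose, without young lean 1, 9 did, and the 2 groups fitted alone gave 3.

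The slow myosin itself did not pass the test against young lean muscle. Myh7 read 9343, 5143, 6881 and 4892 in young lean and 11238, 17639, 11615, 7109.7 and 21402 in aged obese muscle, with overlap (log2 1.02 ± 0.33, adjusted p = 0.0738). Its aged obese level passed the test against aged lean (log2 1.80 ± 0.31, adjusted p = 0.0132) and against young obese muscle (log2 1.37 ± 0.31, adjusted p = 0.0102). As a share of the summed values of the 4 adult myosins, Myh7 took 1.37% ± 0.743 (SD, n = 5) in aged obese and 0.652% ± 0.219 (n = 4) in young lean muscle, with an exact two-sided permutation p of 0.0476 and 0.238 after adjustment over 5 tests. The smallest p this design allows is 0.0159. Myh4 took 88.7% ± 3.24 against 90.0% ± 2.67, Myh1 4.93% ± 0.452 against 5.62% ± 2.12, and Myh2 5.02% ± 2.28 against 3.69% ± 1.28, each with an adjusted exact permutation p of 0.571. In aged obese 5, Myh7 took 2.60% and Myh2 8.94%, the highest of these 9 libraries. The adult myosins share long stretches of sequence, so their shares depend on how reads were assigned, and shares are not per length.

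Changes in log2 of Myh4 (0.02, adjusted p = 0.968), Myh2 (0.46, adjusted p = 0.441) and Myh1 (-0.07, adjusted p = 0.894) did not pass the test. Those of Myh4 and Myh1 had no stable sign across alternative scalings and left-out libraries.

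Genes that take up and burn fatty acids rose in part, and none fell. Of 33 tested, 7 rose (3.25% of all genes did), 30 had a positive change and the median was 0.37. The count that rose was 3 without young lean 2 or young lean 4 and 14 without young lean 1. Acot2, a mitochondrial acyl-CoA thioesterase, read 584, 277, 257 and 255 in young lean and 855, 831, 802, 708 and 876 in aged obese muscle (log2 1.34 ± 0.24, adjusted p = 0.00275). Young lean 1 lay above the other young lean libraries and still below every aged obese one. Acot1, its cytosolic relative, rose by 1.63 ± 0.35 (adjusted p = 0.0114), and since Acot1 and Acot2 are nearly identical in sequence the split of reads between them is uncertain.

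Pdk4, a kinase that inhibits pyruvate dehydrogenase, read 4149, 3804, 3722 and 4503 in young lean and 10584, 11223, 10032, 6883 and 12928 in aged obese muscle (log2 1.33 ± 0.28, adjusted p = 0.009). All aged obese libraries lay above all young lean ones, but young obese muscle was higher still at 20278 ± 6049 (aged obese minus young obese -0.95 ± 0.26, adjusted p = 0.0286). Cpt1a, the carnitine acyltransferase that admits long-chain fatty acids to mitochondria, had the same order, with 195 ± 36.1, 297 ± 45.3 and 456 ± 68.7 in young lean, aged obese and young obese muscle. Its rise of 0.61 ± 0.15 (adjusted p = 0.0216) was lost without young lean 2 or 4 or aged obese 1 or 2 (adjusted p up to 0.0695). The enoyl-CoA isomerase Ech1 (0.70, adjusted p = 0.0244) and the transporters Slc27a1 (0.55, adjusted p = 0.0244) and Cd36 (0.57, adjusted p = 0.046) rose as well. The call of Ech1 was lost without young lean 2 or 4 or aged obese 5 (adjusted p up to 0.0696), that of Slc27a1 lost without young lean 2, 3 or 4 or aged obese 5 (adjusted p up to 0.0745) and that of Cd36 lost in 13 of the 19 fits that left out 1 library (adjusted p up to 0.129, without young lean 2). Ucp3, an uncoupling protein, was 1811 ± 1049 and 1829 ± 178 (log2 0.16, adjusted p = 0.807), below the 4521 of young obese muscle (adjusted p = 0.00848). Against young obese muscle, none of the 33 rose and 3 fell (4.86% of all genes fell).

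Lipid droplet genes split. The droplet coat gene Plin3 fell with little spread, from 645, 482, 597 and 592 to 296, 244, 286, 296 and 339 (log2 -0.98 ± 0.11, adjusted p = 6.1e-05), and was also lower than in aged lean (adjusted p = 0.00947) and young obese muscle (adjusted p = 0.0028). Of the 13 droplet and lipolysis genes it was the only one to fall (2.33% of all genes did), and 3 rose (3.25% did). These were the lipase Mgll (0.79, adjusted p = 0.0259) and the coat genes Plin5 (1.10, adjusted p = 0.0476) and Plin2 (0.57, adjusted p = 0.0487). The 3 rises depended on single libraries: none was called without young lean 2, where the adjusted p of Plin5 was 0.154. Of 20 lipid synthesis genes 2 fell (2.33% of all genes did) and none rose. Among the 2 was Sqle of sterol synthesis (-1.13, adjusted p = 0.0451, lost in 12 of the 19 fits that left out 1 library, adjusted p up to 0.11, without aged obese 3).

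Several genes of glucose entry and glycogen fell. Of 24 glycolysis and glycogen genes, 5 fell (2.33% of all genes did), none rose, 1 had a positive change and the median was -0.24. Slc2a4, the insulin-responsive glucose transporter, read 12619, 12518, 11815 and 11810.1 in young lean and 8639, 7602, 7776, 9018 and 8689.8 in aged obese muscle (log2 -0.55 ± 0.07, adjusted p = 0.000173). Replicates were close and the groups far apart, and Slc2a4 was lower than in aged lean muscle too (log2 -0.39 ± 0.07, adjusted p = 0.0128). Also among the 5 were the glycolytic kinase Pgk1 (-0.69 ± 0.10, adjusted p = 0.000606), the phosphorylase kinase subunit Phka1 (-0.58 ± 0.12, adjusted p = 0.00659) and Ugp2, which makes UDP-glucose (-0.37 ± 0.08, adjusted p = 0.0125). All 5 kept the call in every fit without 1 library, and 9 genes fell without young lean 1. Among 15 insulin signalling genes, Pik3r1, a regulatory subunit of phosphoinositide kinase, fell (-0.62, adjusted p = 0.0473, lost in 14 of the 19 fits that left out 1 library, adjusted p up to 0.131, without young lean 3). None of the 36 complex I or 39 other respiratory chain genes changed (median -0.04 in both lists).

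Genes of the neuromuscular junction and of denervated fibres rose in part. Of 21 tested, 5 rose (3.25% of all genes did), none fell, 18 had a positive change and the median was 0.61. Colq, the collagen tail that anchors acetylcholinesterase, read 238, 189, 142 and 156 in young lean and 302, 255, 281, 329 and 368 in aged obese muscle (log2 0.77 ± 0.16, adjusted p = 0.00643), without overlap, and its call was kept in all 19 fits that left out 1 library. The acetylcholine receptor subunit Chrna1 read 503, 296, 376 and 318 in young lean and 885, 493, 754, 641 and 549.6 in aged obese muscle (log2 0.83 ± 0.22, adjusted p = 0.0335). Young lean 1 of Chrna1 lay inside the aged obese range, and its call was lost in 6 of the 19 fits that left out 1 library (adjusted p up to 0.101, without young lean 2).

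The adult receptor subunit Chrne rose by 0.63 ± 0.16 (adjusted p = 0.0275), from 146 ± 39 to 224 ± 40.2, a call lost in 5 of the 19 fits that left out 1 library (adjusted p up to 0.104, without young lean 3). The agrin receptor Lrp4 rose by 0.45 ± 0.13 (adjusted p = 0.0445), a call lost in 11 of the 19 fits that left out 1 library (adjusted p up to 0.113, without young lean 4). Dach2, a transcriptional repressor linked to denervation in mice, rose by 1.21 ± 0.35 (adjusted p = 0.0478), a call lost in 15 of the 19 fits that left out 1 library (adjusted p up to 0.143, without young lean 4). Without young lean 4, aged obese 1 or aged obese 4, 1 of the 21 rose. Against aged lean muscle none of them rose (0.135% of all genes did).

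The windows before the start sites of the receptor subunits, and that of Cpt1a from the fatty acid group, are shown because several genes of both groups rose. Each is the 250 bases before the start in RefSeq's GRCm38.p6 annotation, on the gene's strand and written 5′ to 3′. In the Chrne and Chrna1 windows capitals mark CAGCTG, an E-box that myogenic factors bind, and CCGGAA, the N-box known from synaptic genes, searched on both strands. In the Cpt1a window capitals mark AGGTCA or its reverse complement, the core element of nuclear receptors. The windows are Chrne at chr11:70619195-70619444 (minus strand), Chrna1 at chr2:73580339-73580588 (minus strand) and Cpt1a at chr19:3323051-3323300 (plus strand).
Chrne: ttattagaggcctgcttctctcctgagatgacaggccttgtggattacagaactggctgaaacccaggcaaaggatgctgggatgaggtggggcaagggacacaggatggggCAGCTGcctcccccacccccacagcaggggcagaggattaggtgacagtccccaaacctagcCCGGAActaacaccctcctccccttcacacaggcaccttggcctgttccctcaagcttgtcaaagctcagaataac
Chrna1: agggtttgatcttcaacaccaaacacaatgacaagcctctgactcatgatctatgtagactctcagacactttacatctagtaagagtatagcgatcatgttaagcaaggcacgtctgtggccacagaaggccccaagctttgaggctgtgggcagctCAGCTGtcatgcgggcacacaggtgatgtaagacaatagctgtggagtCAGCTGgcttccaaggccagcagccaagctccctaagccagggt
Cpt1a: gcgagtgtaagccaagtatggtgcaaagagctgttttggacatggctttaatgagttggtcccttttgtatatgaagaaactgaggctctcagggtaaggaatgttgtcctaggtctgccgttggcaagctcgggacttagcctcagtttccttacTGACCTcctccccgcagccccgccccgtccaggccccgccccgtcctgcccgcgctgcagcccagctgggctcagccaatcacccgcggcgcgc

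In Chrne the E-box letters lie 138 and the N-box letters 76 bases before the start, in Chrna1 E-box letters lie 92 and 44 bases before it, and in Cpt1a this element lies 94 bases before it. Over all 32851 promoter windows of 300 bases in the table, CAGCTG is present in 16.3%, CCGGAA in 14.9% and AGGTCA in 16.3%. Of the 5 junction genes that rose, 3 had a window, of which 2 held CAGCTG and 1 CCGGAA. All 7 risen fatty acid genes had at least 1 window, and 4 of the 7 held CAGCTG and 2 AGGTCA. A gene was counted if any of its windows held the letters, whereas the shares over all windows count single windows, so the 2 are not like for like. A match describes letters and shows no binding.

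The dystrophin complex links the cytoskeleton of the fibre to the matrix and holds neuronal nitric oxide synthase at the membrane through syntrophins. Of its 15 genes, 4 fell (2.33% of all genes did) and none rose (median -0.18), and 2 fell without young lean 2, aged obese 1 or aged obese 3. Against the same young lean libraries 6 fell in young obese (median -0.11) and 3 in aged lean muscle (median -0.20). Over all genes 5.33% and 1.99% fell in these comparisons. Sntb1, a beta-syntrophin, read 171, 86.6, 76.1 and 55.4 in young lean and 35, 31.6, 38.8, 20.3 and 50.9 in aged obese muscle (log2 -1.37 ± 0.31, adjusted p = 0.0153). It read 23.5, 45.9, 35.7, 29.9 and 25.4 in young obese and 52.6, 55.9, 61.2, 27.4 and 65.4 in aged lean muscle. The synthase Nos1 itself read 2959, 3329, 3342 and 3253 in young lean and 2123, 2605, 2209, 2484 and 2578 in aged obese muscle (log2 -0.43 ± 0.11, adjusted p = 0.0244). Nos1 groups did not overlap, and its call was lost without young lean 2 or 3 or aged obese 1 or 3 (adjusted p up to 0.0668). Dystrobrevin Dtna fell (-0.38, adjusted p = 0.0451), a call lost in 12 of the 19 fits that left out 1 library (adjusted p up to 0.112, without young lean 2).

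Among 30 genes of calcium handling and excitability, 3 rose (3.25% of all genes did) and none fell. Kcnab1 and Casq2, described above, were among the 3, and 5 rose without aged lean 2.

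**Figure D3:**
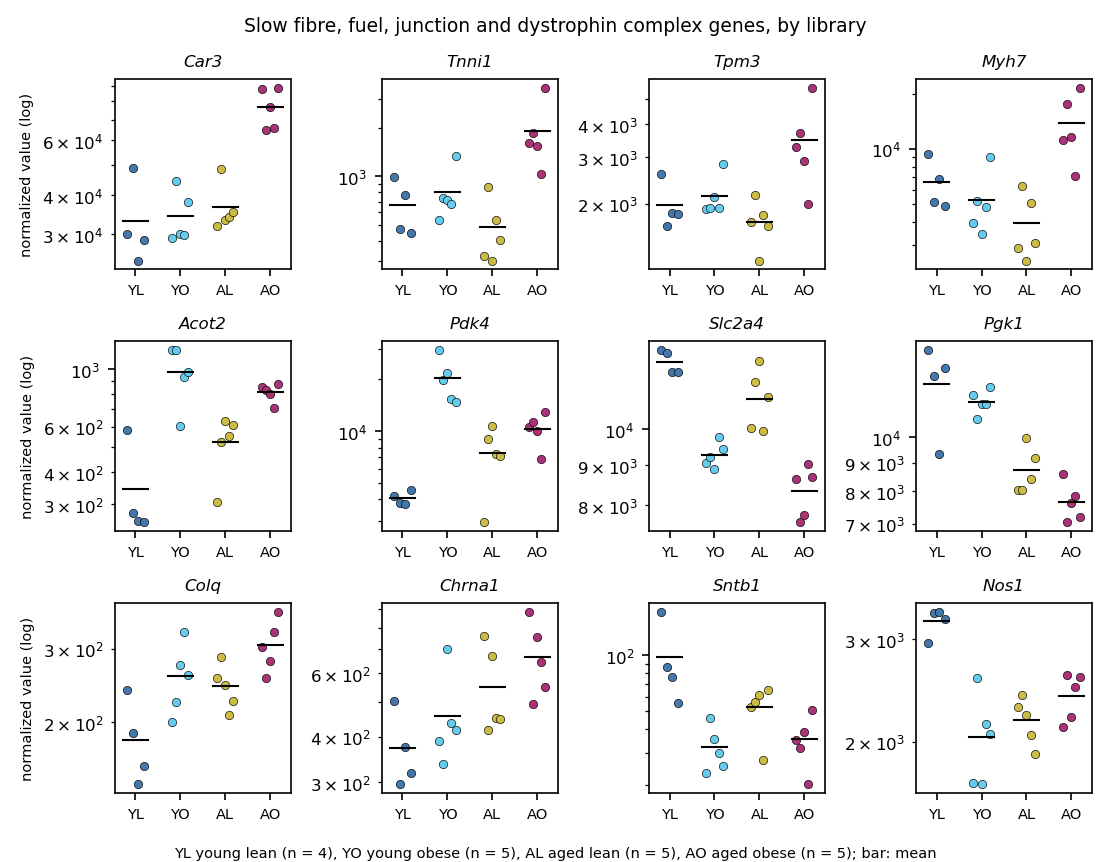
Normalized values (log axis) of 12 muscle genes in every library of the 4 groups, with bars for group means. The slow fibre genes of the top row have their highest means in aged obese muscle, Acot2 and Pdk4 are highest in young obese muscle, Slc2a4 and Pgk1 have their lowest means in aged obese muscle, Sntb1 and Nos1 are highest in young lean muscle, and Colq and Chrna1 have their highest means in aged obese muscle.

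Antigen presentation genes leaned upward. Of 21, 4 rose (3.25% of all genes did), none fell and all 21 had a positive change, with a median of 0.60. The count that rose was 1 without young lean 2, young lean 4, aged obese 1, aged obese 3 or aged obese 4, and 7 without aged lean 3. Against the same young lean libraries all 21 were also positive in aged lean (median 0.69, 3 rose) and young obese muscle (median 0.34, 5 rose). Against aged lean muscle, 0 of the 21 rose in aged obese muscle, and the median was -0.13. Cd74, the invariant chain of class II molecules, read 695, 695, 1546 and 882 in young lean and 2688, 1459.8, 2054, 2599 and 1528 in aged obese muscle (log2 1.15 ± 0.32, adjusted p = 0.0381), with overlap through young lean 3, a call lost in 6 of the 19 fits that left out 1 library (adjusted p up to 0.107, without young lean 2). The class I genes H2-Q6 (1.46 ± 0.35, adjusted p = 0.0193, lost without young lean 3, adjusted p = 0.0701) and H2-Q7 (1.57 ± 0.43, adjusted p = 0.036, lost in 7 of the 19 fits that left out 1 library, adjusted p up to 0.131, without young lean 3) rose, but they are near-identical copies whose reads may have been split between them. The proteasome activator Psme2 rose by 0.41 ± 0.11 (adjusted p = 0.0316), a call lost in 7 of the 19 fits that left out 1 library (adjusted p up to 0.0889, without young lean 4). Of 28 interferon-stimulated genes only Ifi27 rose (0.50, adjusted p = 0.0186, lost without young lean 2 or 3, adjusted p up to 0.0627). Changes were positive in 24 of the 28, with a median of 0.41. Against the same young lean libraries the median was 0.47 in aged lean (26 positive) and 0.37 in young obese muscle (25 positive). Against aged lean muscle 10 of the 28 were positive in aged obese muscle and the median was -0.08.

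Of 24 cytokine and chemokine genes 6 rose (3.25% of all genes did) and none fell, and 3 rose without young lean 2. The median was 0.08 and 15 of the 24 changes were positive. Against the same young lean libraries the median was 0.43 in aged lean (5 rose) and 0.41 in young obese muscle (3 rose). Against aged lean muscle none of the 24 rose in aged obese muscle, 6 were positive and the median was -0.30. Tgfb3, a growth factor of the TGF-beta family, read 689, 783, 730.1 and 699 in young lean and 1053, 1044, 1149, 987 and 1108 in aged obese muscle (log2 0.56 ± 0.07, adjusted p = 0.000115). Its relative Tgfb2 read 617, 727, 535 and 417 in young lean and 946, 1037, 843, 1088 and 949.6 in aged obese muscle (log2 0.78 ± 0.13, adjusted p = 0.00145). Neither overlapped between the groups, and both calls held in every fit without 1 library. The chemokine Cx3cl1 read 77.9, 52.2, 35.2 and 42.8 in young lean and 129.6, 121, 136, 121 and 119 in aged obese muscle (log2 1.31 ± 0.21, adjusted p = 0.00129). Ccl5, a chemokine of T cells, was low: it read 0, 1.04, 3.81 and 3.89 in young lean and 15.4, 10.9, 13.5, 39.6 and 15.3 in aged obese muscle (log2 2.77 ± 0.70, adjusted p = 0.0255), a call lost without young lean 1 or 2 or aged obese 4 (adjusted p up to 0.0631). Ccl5 reached the mean of 10 that the filter asked only through its aged obese values, so the filter favoured a rise. The interferon-induced chemokines Cxcl9 (2.09, adjusted p = 0.0286, lost in 6 of the 19 fits that left out 1 library, adjusted p up to 0.0949, without young lean 2) and Cxcl10 (2.10, adjusted p = 0.0358, lost in 6 of the 19 fits that left out 1 library, adjusted p up to 0.0969, without aged obese 3) rose. Of 14 T and B cell markers 2 were tested, and neither passed. Of these 2, Cd79a reached the filter's mean of 10 only through its aged obese values, so the filter favoured a rise. The summed values of the list were 16.2 to 34.1 in young lean and 40.1 to 143 in aged obese libraries. They were 36.7 to 195 in aged lean and 24.8 to 51.2 in young obese libraries. Cd79a of B cells read 4.87, 10.4, 2.86 and 0.972 in young lean and 2.06, 35.6, 11.7, 23.5 and 22.4 in aged obese muscle (log2 1.68 ± 0.64, adjusted p = 0.13, and 0.0229 without aged obese 1). Jchain of antibody-secreting cells read 4.87, 5.22, 2.86 and 5.83 in young lean and 21.6, 3.96, 96.6, 28.9 and 46.8 in aged obese muscle (log2 2.30 ± 0.92, adjusted p = 0.15). Both overlapped between the groups in 1 low aged obese library. Macrophage markers summed to 2154 to 6368 in young lean and 3166 to 5945 in aged obese libraries. The part of other cells in these rises was not tested.

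Adipocyte markers were mixed. Of 14, 3 rose (Car3, Lep and Cidea), beside 3.25% of all genes, and none fell, with a median of 0.35. The summed value of the list, most of which is Car3, was 49878 to 69325 in young lean and 88237 to 121069 in aged obese libraries. Of the 14 changes 9 were positive, and Car3 is also counted among the slow fibre genes. Against young obese muscle 6 of the 14 were positive and the median was -0.14. Cidea, a lipid droplet protein of adipocytes, read 19.5, 3.13, 8.57 and 18.5 in young lean and 36, 47.5, 37.9, 75.9 and 93.6 in aged obese muscle (log2 2.30 ± 0.44, adjusted p = 0.00393). Adipoq, the adipocyte hormone adiponectin, read 470.1, 96, 109 and 363 in young lean and 264, 424, 408, 187 and 665 in aged obese muscle with overlap (log2 0.79 ± 0.48, adjusted p = 0.373). The part of adipocytes in the rises of Lep, Cidea and Car3 was not tested. Endothelial markers changed in 1 of 12, the vascular growth factor receptor Flt1, which fell from 1802 ± 197 to 1259 ± 58.4 (log2 -0.51 ± 0.10, adjusted p = 0.0035).

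None of the listed matrix genes passed the test between aged obese and young lean muscle, though most changes were negative. The lists held 20 collagens, 28 matrix glycoproteins and proteoglycans, 27 remodelling genes and 10 tendon markers. Their medians were -0.22, -0.09, -0.17 and -0.40, with 3, 7, 9 and 2 positive changes. Col1a1 read 3704, 1179, 7989 and 949 in young lean and 1035, 1412, 1332, 1290.5 and 2363 in aged obese muscle (log2 -0.75 ± 0.55, adjusted p = 0.473). Young lean 1 and 3 were high and the other young lean libraries were not, so the spread of the young lean group was wide. The log2 of the summed Col1a1, Col1a2 and Col3a1 values was 12.15 ± 0.38 (SD, n = 5) in aged obese and 12.93 ± 1.32 (n = 4) in young lean muscle, with an exact two-sided permutation p of 0.302 and 0.571 after adjustment over 5 tests. Col1a2 changed by -0.69 ± 0.42 (adjusted p = 0.371) and Col3a1 by -0.86 ± 0.59 (adjusted p = 0.432). Against young obese muscle, by contrast, 16 of the 20 collagens and 9 of the 10 tendon markers were lower (4.86% of all genes were). The summed tendon markers were 5595 to 9662 in young lean, 3864 to 9465 in aged obese and 13253 to 32326 in young obese libraries, and the part of tendon RNA in that difference was not tested. Of 12 markers of fibro-adipogenic progenitors, the connective tissue cells of muscle, Smoc2 alone rose (0.31, adjusted p = 0.0499, lost in 15 of the 19 fits that left out 1 library, adjusted p up to 0.125, without young lean 4).

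**Figure D4:**
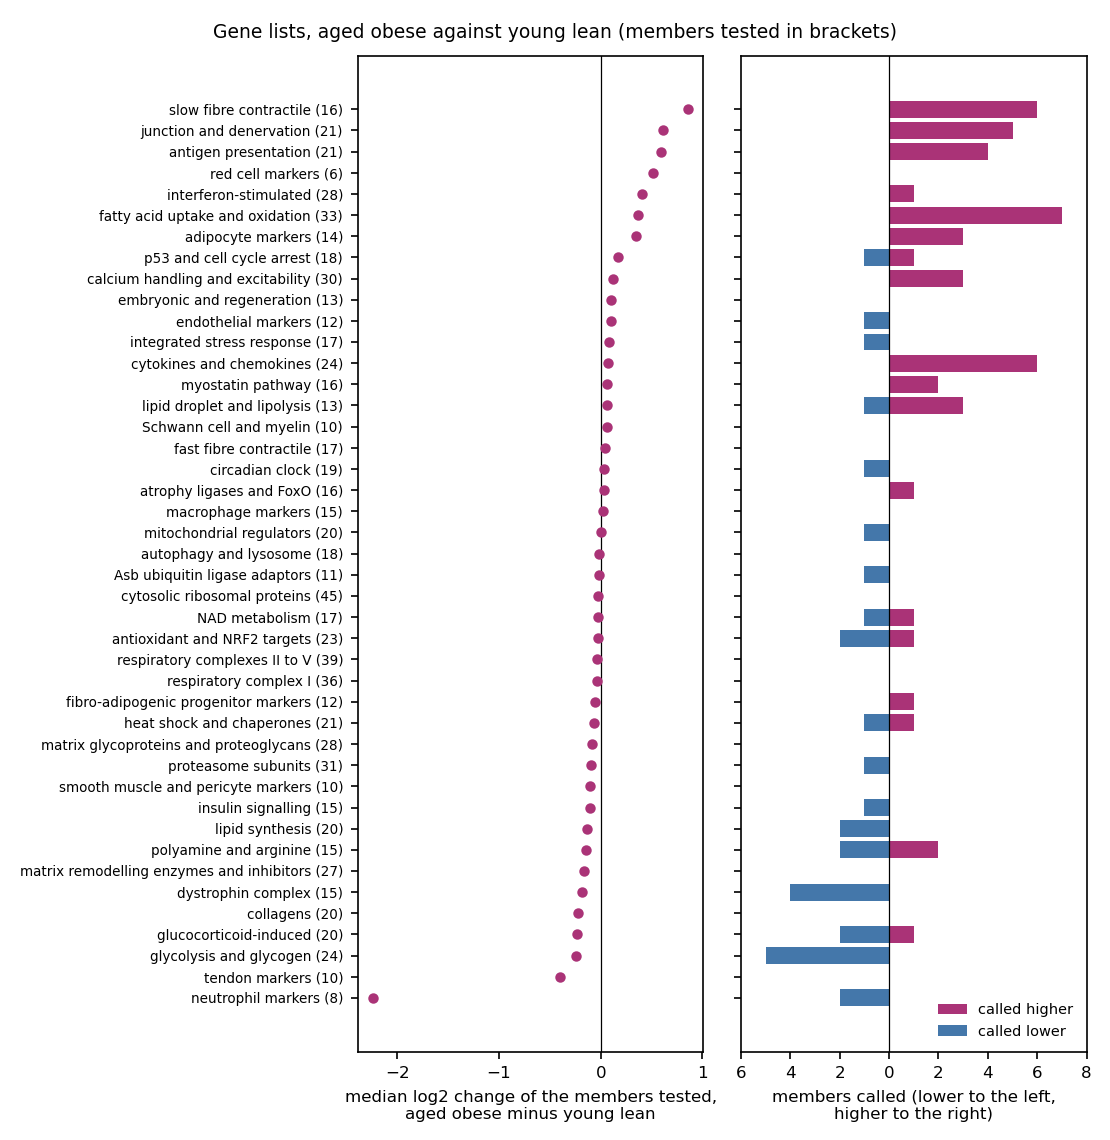
Left, the median log2 change, aged obese minus young lean, of the members tested of each gene list with at least 5 of them. Right, the number of members called lower (blue, left) or higher (purple, right). Slow fibre, junction and antigen presentation genes have the highest medians, neutrophil markers the lowest, and fatty acid, slow fibre and cytokine lists hold the most members that rose.

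Stress and growth genes changed singly. Over all genes 3.25% rose and 2.33% fell, so 1 or 2 calls in a list say little about the list. Of 18 genes of p53 and cell cycle arrest, Bbc3, a pro-apoptotic target of p53, rose from 19.5, 21.9, 25.7 and 43.7 to 52.5, 59.3, 82.2, 58.8 and 58 (log2 1.19 ± 0.24, adjusted p = 0.00726) and the cyclin-dependent kinase inhibitor Cdkn1b fell (log2 -0.50 ± 0.10, adjusted p = 0.00667). Both sets of libraries were separate. Cdkn1a, the inhibitor best known as a p53 target and senescence marker, read 292, 301, 490.2 and 385 in young lean and 1061, 1051, 1881, 506 and 454 in aged obese muscle (log2 1.26 ± 0.42, adjusted p = 0.0854), so 3 aged obese libraries were high and 2 lay within or near the young lean range. Among 23 antioxidant genes, catalase Cat rose (log2 0.79 ± 0.13, adjusted p = 0.00115) while the peroxiredoxin Prdx1 (-0.39 ± 0.06, adjusted p = 0.00137) and superoxide dismutase Sod1 (-0.35 ± 0.08, adjusted p = 0.0111) fell. All 3 calls held in every fit without 1 library, and 4 genes fell without young lean 1. Of 17 genes of the integrated stress response only its transcription factor Atf4 changed, and it fell (-0.39 ± 0.08, adjusted p = 0.00667).

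The myostatin pathway, a brake on muscle growth, had 2 rises among 16 genes: Mss51 and the myostatin antagonist follistatin, Fst, which read 71, 78.2, 72.3 and 99.1 in young lean and 135, 155, 179.7, 107 and 148 in aged obese muscle (log2 0.84 ± 0.17, adjusted p = 0.00768). Fbxo32 and Trim63, ubiquitin ligases of atrophy, did not pass the test. Fbxo32 read 1520.2, 6262, 12725 and 23107 in young lean muscle, a more than 10-fold spread, and 8585, 10922, 11108, 7221 and 5027 in aged obese muscle (log2 0.18 ± 0.48, adjusted p = 0.877). Without young lean 1 its change turned to -0.57. Trim63 changed by 0.24 ± 0.28 (adjusted p = 0.685) and turned to -0.04 without young lean 1. Of the 16 ligase and FoxO genes, Fbxo21 alone rose (0.60 ± 0.10, adjusted p = 0.00231), and of 31 proteasome genes Psmb7 alone fell (-0.23, adjusted p = 0.03, lost in 5 of the 19 fits that left out 1 library, adjusted p up to 0.086, without young lean 4).

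Of 15 polyamine and arginine genes, 2 rose (3.25% of all genes did) and 2 fell (2.33% did). Oaz2, the antizyme that restrains polyamine synthesis, read 2253, 2619, 2586 and 2445 in young lean and 3238, 3362, 3566, 3486 and 3416 in aged obese muscle (log2 0.46 ± 0.07, adjusted p = 0.000349). Gamt, the last enzyme of creatine synthesis, rose by 1.02 ± 0.16 (adjusted p = 0.00079). Spermine oxidase Smox read 10296, 12564, 4429.9 and 4668 in young lean and 3255, 3802, 3129.9, 4562 and 2707 in aged obese muscle (log2 -1.07 ± 0.28, adjusted p = 0.031). Young lean libraries of Smox fell into 2 levels, of which the lower overlapped aged obese muscle, and the call was lost in 6 of the 19 fits that left out 1 library (adjusted p up to 0.108, without young lean 2). Among 17 genes of NAD metabolism, the riboside kinase Nmrk2 rose (log2 1.36 ± 0.36, adjusted p = 0.0315, lost in 5 of the 19 fits that left out 1 library, adjusted p up to 0.117, without young lean 3) and the salvage enzyme Nampt fell (log2 -0.38 ± 0.07, adjusted p = 0.00249).

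Further lists held few called members, beside 3.25% of all genes that rose and 2.33% that fell. Bcat2 of branched-chain amino acid breakdown fell beside Fkbp5 among 20 glucocorticoid-induced genes (-0.46, adjusted p = 0.0316, lost in 6 of the 19 fits that left out 1 library, adjusted p up to 0.0996, without young lean 4), while Pdk4 rose, and of that list 1 fell without young lean 3, young lean 4, aged obese 2, aged obese 3 or aged obese 5 and 4 without young obese 3. The nuclear receptor Ppard fell among 20 mitochondrial regulators (-0.43, adjusted p = 0.0231, lost without young lean 3 or 4 or aged obese 2 or 5, adjusted p up to 0.0767), the repressor Nfil3 among 19 clock genes (-0.94, adjusted p = 0.0445, lost in 10 of the 19 fits that left out 1 library, adjusted p up to 0.111, without young lean 4) and Asb11 among 11 muscle ligase adaptors (-0.77, adjusted p = 0.0135, kept in all 19 fits that left out 1 library). Of 21 chaperones Hspa5 of the endoplasmic reticulum rose by 0.48 (adjusted p = 0.0363, lost in 8 of the 19 fits that left out 1 library, adjusted p up to 0.113, without young lean 3) and mitochondrial Hspe1 fell by 0.62 (adjusted p = 0.0377, lost in 6 of the 19 fits that left out 1 library, adjusted p up to 0.0961, without aged obese 2). None of 45 ribosomal, 18 autophagy and lysosome, 10 Schwann cell, 10 smooth muscle and pericyte, 6 red cell or 13 embryonic and regeneration genes changed.

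Whether age and the high-fat diet add up was tested as the departure of the aged obese level from the young lean level plus both single effects. Of 13367 genes 398 departed (2.98%), 172 above the sum (1.29%) and 226 below it (1.69%). The same quantity is how far the effect of diet differs between old and young animals, and young lean libraries enter it as they enter the comparison above, so the values for a gene are not independent.

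Myh7 had the largest positive departure among named genes. Its mean was 6565 ± 2052 (SD, n = 4) in young lean, 3944 ± 1642 in aged lean and 5275 ± 2218 in young obese muscle, whereas aged obese muscle held 13801 ± 5671. The departure was 2.15 ± 0.45 (log2 ± SE, adjusted p = 0.02). Per3, a clock gene, averaged 639, 389, 307 and 521 in young lean, aged lean, young obese and aged obese muscle, a departure of 1.50 ± 0.25 (adjusted p = 0.00859). Slc7a2 averaged 2525, 1153, 939.7 and 1161 in the same order, and the aged obese level lay above the sum by 1.41 ± 0.31 (adjusted p = 0.0226). Nos1 departed upward too (0.82 ± 0.15, adjusted p = 0.0113), as did Ugp2 (0.57 ± 0.11, adjusted p = 0.0181). Sh3rf2 (1.41 ± 0.29, adjusted p = 0.02) and the protease Adamts20 (1.52 ± 0.37, adjusted p = 0.0364) completed the 5 largest positive departures, though the 2 groups themselves differed little in them (0.01 and 0.10).

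The 5 largest negative departures were led by fibrillar collagens. They were Col1a1 (-3.48 ± 0.76, adjusted p = 0.0226), Col1a2 (-3.08 ± 0.58, adjusted p = 0.013), the proteoglycan Kera (-2.91 ± 0.65, adjusted p = 0.024), Cilp2 (-2.68 ± 0.68, adjusted p = 0.0414) and the secreted Wnt modulator Sfrp2 (-2.64 ± 0.71, adjusted p = 0.0483). Col1a1 averaged 3455 in young lean, 2514 in aged lean, 19355 in young obese and 1487 in aged obese muscle, so its high level in young obese muscle was not present in aged obese muscle. Of the 20 collagens 10 departed downward and none upward, and 2 of 10 tendon markers departed downward (1.69% of all genes did).

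Of the 33 fatty acid genes, 2 departed downward (1.69% of all genes did) and none upward. Pdk4 fell short of the sum by 1.71 ± 0.38 (adjusted p = 0.0252) and Cpt1a by 0.96 ± 0.20 (adjusted p = 0.02). Nmrk2 averaged 567, 1269, 4159 and 1394 in young lean, aged lean, young obese and aged obese muscle (departure -2.62 ± 0.50, adjusted p = 0.0131). Syt9 (-2.12 ± 0.42, adjusted p = 0.0175), Tmem132b (-1.31 ± 0.24, adjusted p = 0.0113), Cx3cl1 (-1.16 ± 0.29, adjusted p = 0.0413) and Smox (-1.64 ± 0.39, adjusted p = 0.0312) were below the sum, while Car3 (1.00 ± 0.25, adjusted p = 0.0406), Dtna (0.55 ± 0.15, adjusted p = 0.0492), Asb11 (1.16, adjusted p = 0.02) and Ppard (0.59, adjusted p = 0.0384) were above it. Several of these departures depended on single libraries: of the 19 fits without 1 library, the call held for Adamts20 in 10 (adjusted p up to 0.0836), Smox in 8 (adjusted p up to 0.0666), Cilp2 in 7 (adjusted p up to 0.0808), Car3 in 6 (adjusted p up to 0.0795), Dtna in 6 (adjusted p up to 0.106), Cx3cl1 in 5 (adjusted p up to 0.0781) and Sfrp2 in 4 (adjusted p up to 0.112). The number of departing genes depended on single libraries and on covariates. Dropping young lean 1 gave 1724, young lean 2 gave 112, aged lean 5 gave 119 and young obese 2 gave 1312. With the mean of 6 tendon genes as covariate it was 0, with 1534 genes at an unadjusted p under 0.05.

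**Figure D5:**
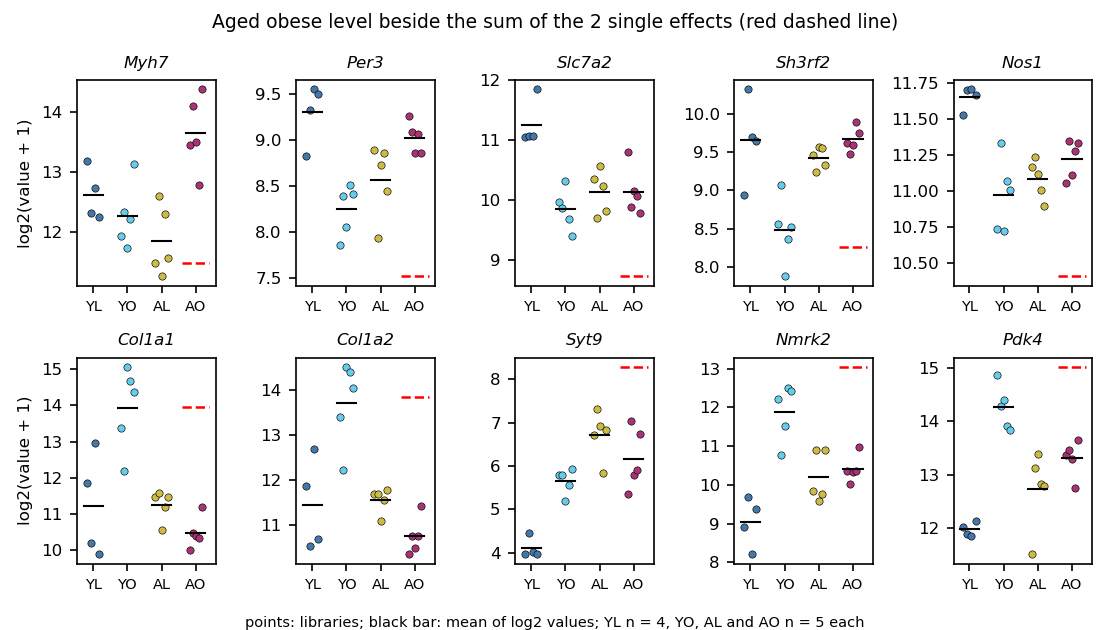
Points are log2(value + 1) in each library for 10 genes, black bars are group means, and the red dashed line is the level that the young lean mean plus both single effects gives for aged obese muscle. Myh7, Per3, Slc7a2, Sh3rf2 and Nos1 lie above that line in aged obese muscle, and Col1a1, Col1a2, Syt9, Nmrk2 and Pdk4 below it.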

How the data were processed

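RNA from gastrocnemius was sequenced single-end on a BGI instrument and samples with an RNA integrity number under 7 were left out, per the labels' protocols. The series' design text names another muscle, paired-end reads and another age range, and the sample labels were followed here. The submitters' processing notes list STAR 2.78a, DESeq2, Partek and the mm39 build, and which step each served is not given in the sources used here. Values in the deposited table are normalized signal per gene, scaled by the authors before deposit: of values up to 200 reads, 85.1% to 86.2% came out as whole reads within 0.02 reads, so reads were not recovered and no count model was fitted. Estimated depth was 15063612 to 17849916 reads per library.

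Genes with a mean of at least 10 were kept and log2(value + 1) was fitted over all 4 groups with limma 3.58.1 (R 4.3.3; trend, Benjamini-Hochberg adjustment over 13367 genes, threshold 0.05, 15 residual degrees of freedom). Myosin shares and summed collagens were compared by exact two-sided permutation tests (scipy 1.17.1), adjusted over 5 tests. On simulated data for aged obese against young lean over 13367 genes, 71 of 100 genes changed 1.5-fold, 89 of 100 changed 2-fold and 97 of 100 changed 4-fold were recovered, with 11 false among 268 calls. Tables were made with Python 3.11.15, numpy 2.4.6 and pandas 2.3.3, and figures with matplotlib 3.10.9.

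Named genes are the 14 largest called changes in each direction with a mean of at least 50, predicted genes left out, the 5 largest departures in each direction by the same rule, the up to 4 members of each list with the lowest p, and 14 genes whatever their values (Myh7, Myh2, Myh1, Myh4, Col1a1, Col1a2, Col3a1, Fbxo32, Trim63, Cdkn1a, Pdk4, Ucp3, Adipoq and Slc2a4). Further called list members were named after their values were seen. The members and lists were chosen with earlier results of these data known. Alternatives covered pseudocount, filter, scaling, library weights, robust moderation, 2 groups alone, covariates and left-out libraries. Results for some genes that these rules name are not reported here.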

Additional observations from a re-analysis of the deposited data

Results flagged for a closer look

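In 23 of 240 groups of values examined, 1 library lay far from the rest of its group by Dixon's criterion, which chance alone meets in about 1 in 20 groups. Aged obese 5 was that library 10 times. It was high in Rab15 (449), Myl6b (307), Retnlg (4.07), Casq2 (1684), Col1a1 (2363), Kera (140.5), Ech1 (6045), Cd36 (8639) and the Myh2 share of the adult myosins (8.94%), and low in the Myh4 share (83.0%, against 89.3% to 90.8% in the other aged obese libraries). Young lean 1 was that library 5 times, low in Mss51 (224) and high in Nnat (288), Acot2 (584), Mgll (1541) and Hspa5 (3380). Young lean 4 was high in Osgin1 (633) and Slc7a2 (3691), and aged obese 1 in Slc7a2 (1784) and Cdkn1b (584). Aged obese 3 was high in Bbc3 (82.2) and low in Sqle (9.03). Young lean 2 was high in Syt9 (20.9), and aged obese 4 in Ccl5 (39.6).

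The diet effect differed between aged and young mice, by limma's test of that difference with Benjamini-Hochberg adjustment, for 23 of the named genes. On the log2 scale, with the young effect subtracted from the aged one, the difference was positive for Myh7 (2.15), Adamts20 (1.52), Per3 (1.50), Slc7a2 (1.41), Sh3rf2 (1.41), Asb11 (1.17), Car3 (0.99), Nos1 (0.82), Ppard (0.59), Ugp2 (0.57) and Dtna (0.55). It was negative for Col1a1 (-3.48), Col1a2 (-3.08), Kera (-2.91), Cilp2 (-2.69), Sfrp2 (-2.64), Nmrk2 (-2.62), Syt9 (-2.12), Pdk4 (-1.71), Smox (-1.64), Tmem132b (-1.31), Cx3cl1 (-1.16) and Cpt1a (-0.96).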

How the results depend on the processing

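The 746 genes that differed became 1711 with library weights, 389 with the 2 groups fitted alone and 1219 without young lean 1 and young obese 2 together. Single left-out libraries gave 436 to 1078, and the other alternatives 684 to 854. The 398 departures became 2494 with library weights, 2694 without that pair, 5 with the clock score as covariate (1349 at an unadjusted p under 0.05) and 0 with the tendon score, and 112 to 1724 without single libraries. The cause was not tested. Of the 97 named genes called, 53 kept the call without each library in turn.

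Changes that reversed sign were all uncalled. Myh1 went to 0.117 with library weights, to 0.0085 without the pair and from -0.22 to 0.0689 over left-out libraries. Myh4 went to 0.00 with quantile normalization, to -0.037 with the tendon score and from -0.0566 to 0.14. Fbxo32 went to -0.35 with library weights, to -0.57 without the pair and from -0.57 to 0.73. Trim63 went to -0.0367 without the pair and from -0.0367 to 0.57. Sh3rf2 went to -0.0765 with library weights, to -0.22 without the pair and from -0.22 to 0.24. Ucp3 ranged from -0.0551 to 0.51 and Adamts20 from -0.0977 to 0.34. Differences in share ranged from 0.407 to 0.899 percentage points for Myh7, 0.345 to 1.75 for Myh2, -2.06 to 0.0801 for Myh4 and -1.33 to 0.193 for Myh1, and the log2 difference in summed collagens from -1.16 to -0.27.

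No paired analysis was possible because replicate numbers were given in accession order and pair no samples. With 4 and 5 libraries, 71 of 100 simulated 1.5-fold changes were recovered, so smaller changes can be missed. In that simulation no low-level gene was changed and libraries shared no effects, so recovery in the real libraries can differ.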
